A study of Mus musculus with 4 samples.

Results

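The genes described here encode the proteins of the cytosolic ribosome, the particle that makes all proteins outside mitochondria. They were chosen by name, as every probe whose RefSeq accession led to a mouse symbol of the Rpl or Rps series, together with Rplp0, Rplp1, Rplp2 and Rpsa. The array carried 169 such probes for 82 genes, out of 39429 probes in all. Of the 82 genes, 81 were well above background and were tested, 49 of the large subunit and 32 of the small subunit. The remaining gene, Rpl10l, a retrogene known for its role in male meiosis, was well above background in 1 knockout-labelled sample and in no wild-type sample, so it was not tested. The brightest probe stood for a gene and the others served as a check.

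RNA came from the cortex on the injured side of C57BL/6 mice aged 8 weeks, 24 h after permanent closure of the left middle cerebral artery by electrocoagulation (pMCAO), a model of ischaemic stroke. Mice labelled Ndrg2KO, for knockout of Ndrg2, a gene strongly expressed in astrocytes, were set against wild-type mice, both after pMCAO and with no uninjured group analysed here. Each of 4 2-colour Agilent arrays held a pair with 1 replicate number, the knockout-labelled RNA in Cy3 and the wild-type RNA in Cy5, so that n = 4 for each genotype. The labels gave neither the make of the allele nor whether samples were separate mice, so the p-values cover the spread of these 4 pairs, part of which may be technical.

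Ribosomal protein genes are among the most strongly transcribed genes of any cell, and their products are needed in equal amounts, so their RNAs usually move together. In vertebrates these RNAs begin with a tract of pyrimidines, through which mTOR signalling and the RNA-binding protein Larp1 control their translation as a group. In brain after ischaemia, protein synthesis is known to be shut down early through phosphorylation of initiation factor 2 and to recover outside the infarct core.

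Of 43020 spots on an array, 73.6 to 74.9% of those in Cy3 (knockout-labelled) and 76.7 to 79.0% of those in Cy5 (wild type) were well above background, none was saturated, and the number of arrays limited the precision. The dyes were never swapped, so a dye effect on a probe and the genotype cannot be told apart. Ndrg2 itself differed little, with log2 ratios (knockout-labelled to wild type) of -0.22, -0.22, -0.18 and -0.11 on arrays 1 to 4 (mean -0.18 ± 0.05, SD, n = 4; limma, adjusted p = 0.0249), so the samples are called knockout-labelled. All 8 cortical excitatory neuron markers looked for were above background. Astrocyte markers were lower in 3 of 7 (42.9%), with medians of -0.23, -0.31, -0.06 and -0.31 on arrays 1 to 4. Microglia markers were lower in 3 of 7 (42.9%), with medians of -0.08, -0.05, -0.10 and -0.21. Over all features tested, 12.7% were lower and 8.63% higher. Other lists shifted between arrays: monocyte and macrophage markers (7 of 8 tested, 2 lower) had medians of -0.54, -0.60, -0.15 and 0.41, oligodendrocyte markers (7 of 7 tested, 1 higher) -0.17, -0.25, 0.28 and 0.46, and striatal neuron markers (8 of 8 tested, 1 lower) -0.41, -0.56, 0.23 and -0.05. Their part in the results below was not tested. The median of the ribosomal protein genes was -0.03, -0.07, -0.06 and -0.03 on the same arrays. In bulk tissue, fewer cells of a type and less RNA per cell cannot be told apart.

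The first question was whether ribosomal protein genes differed between the genotypes after ischaemia. They split: 25 of 81 were lower and 12 higher in the knockout-labelled cortex at a limma adjusted p under 0.05, and 44 did not pass. The largest fall was that of Rpl23, a protein of the face that joins the small subunit, by 0.52 ± 0.07 on the log2 scale, or 1.43-fold. The largest rises were those of Rps4l, a rodent copy of the small-subunit gene Rps4x, at 0.46 ± 0.27, and of the stalk gene Rplp1 at 0.26 ± 0.07 (SD, n = 4 each). Over all 24563 features tested, 12.7% were lower and 8.63% higher. The median over the 81 genes was -0.05, against -0.02 over all features. No gene differed by more than the 1.43-fold of Rpl23.

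Both subunits held genes called in both directions. Of the large-subunit genes, 15 of 49 were lower (30.6%) and 5 higher (10.2%), with a median of -0.05. Of the small-subunit genes, 10 of 32 were lower (31.2%) and 7 higher (21.9%), with a median of -0.05.

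**Figure D1:**
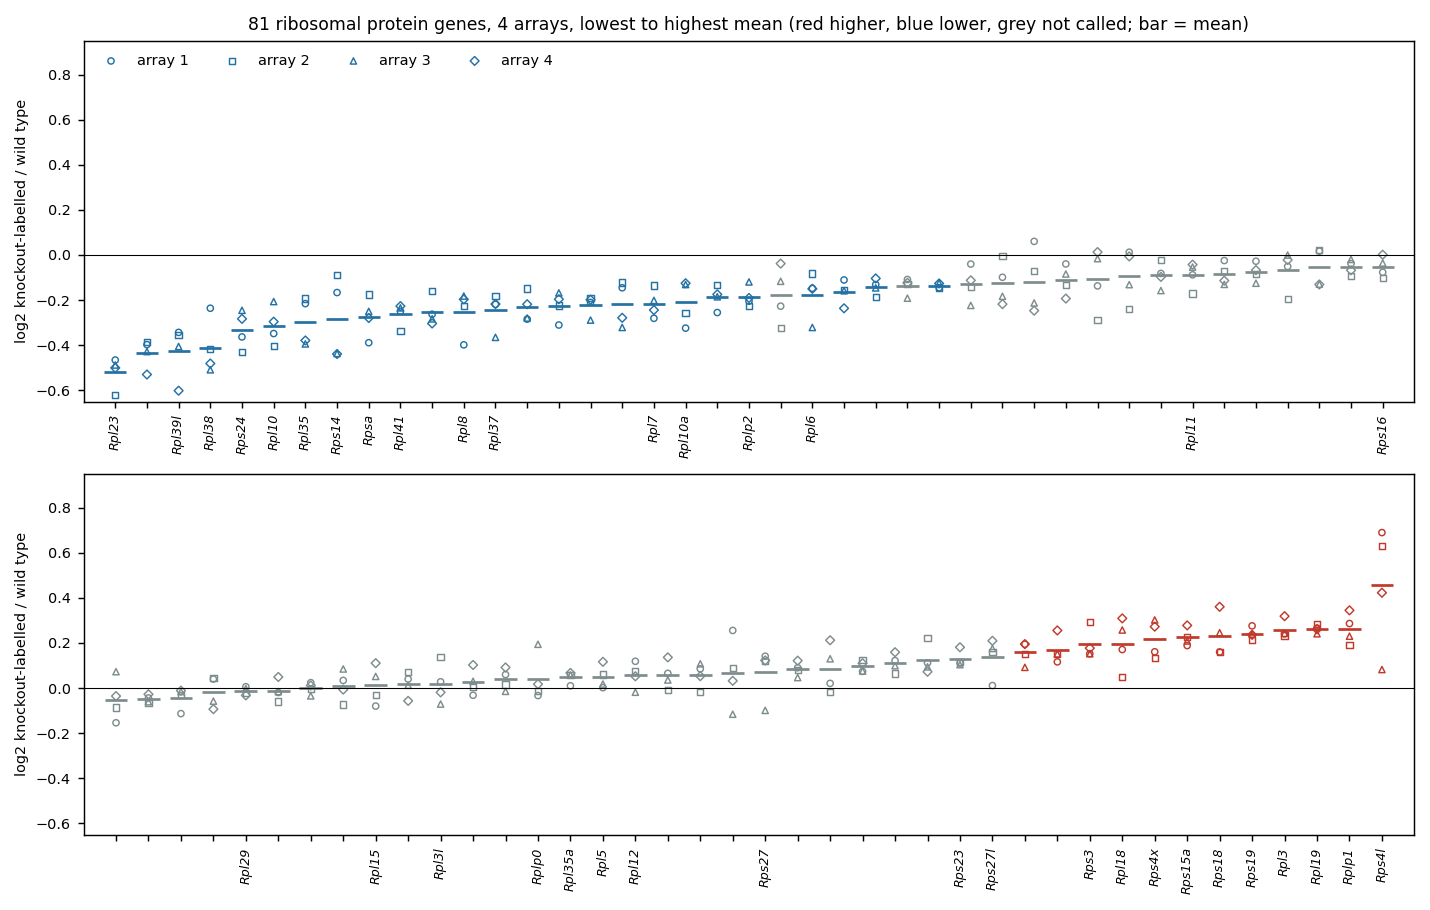
Log2 ratio, knockout-labelled to wild type (vertical axis) of the 81 tested ribosomal protein genes, ordered by their mean over 4 arrays; symbols are arrays, bars are means, colour marks the call at a limma adjusted p under 0.05, and genes named in the text are labelled. The genes run from -0.52 for Rpl23 to 0.46 for Rps4l, with 25 called lower and 12 called higher.

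The calls varied with the brightness of the probes. Ribosomal protein genes were very bright, with a median of the mean log2 intensity of 15.81, against 9.49 for the other features, and 78 of 81 lay above 13, where only 15.5% of the other features lay. Among the 35 genes at 16 and over, 20 were lower and 1 higher, a share of 57.1% lower. Of the 287 other features of that brightness, 156 were lower and 5 higher, a share of 54.4% lower. Among the 12 genes from 14 to 15, 7 were higher and 5 did not pass, against 234 higher and 116 lower of 1082 other features. Across the 78 bright genes the log ratio correlated with brightness at Pearson's r = -0.64 and Spearman's rho = -0.68, a description over genes that share the same 8 samples and dyes.

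**Figure D2:**
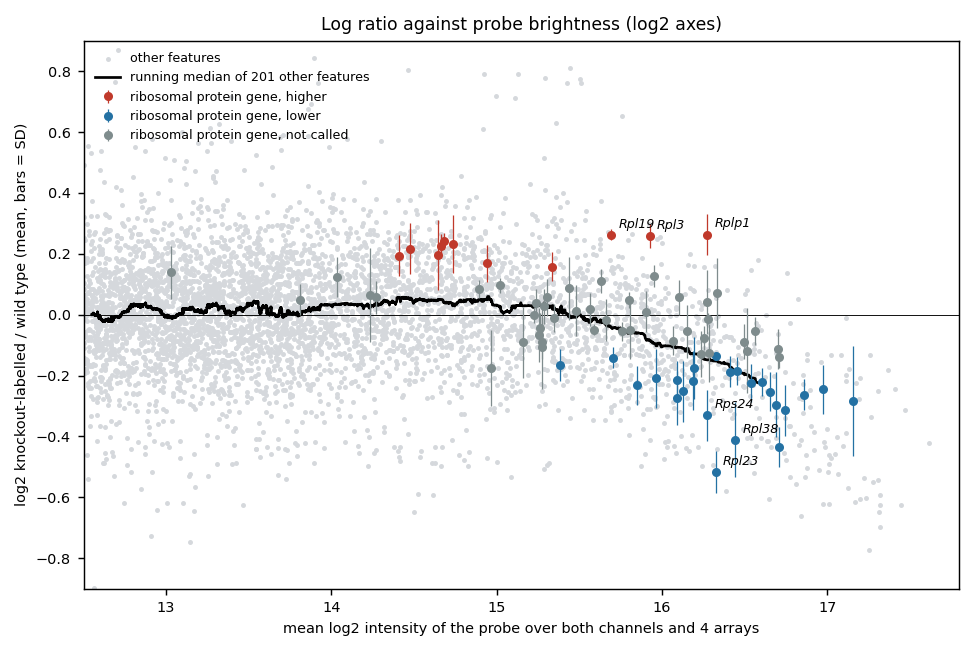
Log2 ratio, knockout-labelled to wild type (vertical axis, mean of 4 arrays, bars are SD) against mean log2 intensity of the probe (horizontal axis) for ribosomal protein genes, coloured by call, and for other features in grey. The black running median of other features bends below 0 at the bright end, where most of the genes called lower lie, and Rplp1, Rpl3 and Rpl19 lie above it.

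Each gene was therefore set against a window of the other features nearest to it in brightness. The median of this difference over the 81 genes was 0.02, and by array it was 0.03, 0.04, 0.01 and 0.03. By brightness it was 0.05 under 14, 0.14 from 14 to 15, 0.01 from 15 to 16 and 0.00 at 16 and over. When all log ratios were centred in this way and fitted again, 14 ribosomal protein genes were higher and 8 lower, against 9.29% higher and 9.71% lower over all features. As shares of the 81 genes these were 17.3% and 9.88%. Of the 25 genes lower without the centring, 7 remained lower and 18 no longer passed. Of the 12 higher genes, 8 remained higher. The 10 brightest genes, among them Rpl41, Rpl37 and Rps14, lay above the middle of the last window and so were compared with features that were mostly dimmer. With narrower windows of 51 features, an alternative chosen after seeing the data, Rpl41 and Rps14 turned from -0.03 and -0.05 to 0.09 and 0.12.

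Some genes kept their call in the loess fit, after centring on like brightness, with the log ratios of the scanning software and with a narrower loess. The scanner's ratios gave 8 genes higher and 4 lower, against 6.87% and 7.13% of all features, and the narrower loess gave 15 higher and 6 lower, against 8.74% and 11%. Genes that kept it in each of these were Rplp1, Rpl3, Rpl19, Rps19 and Rps15a, which were higher, and Rpl23, Rpl38 and Rpl39l, which were lower. With each array only centred on its median, a setting that put the median of all features at -0.18 and that of the ribosomal protein genes at -0.67, 78 genes were lower and 1 higher, against 53.6% and 25.8% of all features, and the 5 higher genes turned negative, as given with the alternatives below.

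Rplp1 encodes an acidic protein of the stalk that recruits elongation factors to the ribosome. Its normalised log2 intensities were 16.36, 16.34, 16.40 and 16.52 in knockout-labelled samples 1 to 4, against 16.07, 16.14, 16.17 and 16.18 in wild-type samples. Every knockout-labelled value lay above every wild-type value. The log2 ratio was 0.26 ± 0.07 (limma, adjusted p = 0.0101), and 0.41 ± 0.07 relative to features of like brightness (adjusted p = 0.00336).

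The other genes of the stalk were not called higher by loess. Rplp2, the partner of Rplp1 in the stalk dimers, stood at 16.28, 16.27, 16.46 and 16.43 in knockout-labelled samples and at 16.48, 16.50, 16.58 and 16.62 in wild-type samples. It was lower by loess, at -0.19 ± 0.05 (adjusted p = 0.0225), but at 0.00 relative to features of like brightness (adjusted p = 0.972). Rplp0, which anchors the stalk, stood at -0.03, -0.01, 0.19 and 0.02 on arrays 1 to 4 and did not pass (mean 0.04 ± 0.10, adjusted p = 0.595), with overlapping groups. Relative to like brightness Rplp0 was called higher, as Rplp1 was, at 0.19 ± 0.10 (adjusted p = 0.0398). Its other probes stood at 0.12 and -0.03. A difference between the stalk genes was not tested.

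Rpl3 lies beside the peptidyl transferase centre, where peptide bonds form. It stood at 16.03, 16.06, 16.0021 and 16.13 in knockout-labelled samples, against 15.79, 15.82, 15.76 and 15.81 in wild-type samples. The groups did not overlap, and the log2 ratio was 0.26 ± 0.04 (adjusted p = 0.00869). Rpl10, which completes the same centre late in ribosome assembly, went the other way at -0.31 ± 0.08 (adjusted p = 0.00753). Relative to like brightness Rpl3 was at 0.34 ± 0.03 (adjusted p = 0.0041) and Rpl10 at -0.08 ± 0.09, which did not pass (adjusted p = 0.248).

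Rpl19, a large-subunit protein that contacts the small subunit, had the smallest spread of these genes. Its levels were 15.75, 15.79, 15.85 and 15.92 in knockout-labelled samples and 15.48, 15.51, 15.61 and 15.66 in wild-type samples. The log2 ratios of 0.27, 0.28, 0.24 and 0.26 gave a mean of 0.26 ± 0.02 (adjusted p = 0.00735).

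Rps19 is the gene most often mutated in Diamond-Blackfan anaemia, a failure of red cell production in people with too little of a ribosomal protein. It stood at 14.84, 14.75, 14.82 and 14.82 in knockout-labelled samples, against 14.56, 14.53, 14.58 and 14.58 in wild-type samples, a log2 ratio of 0.24 ± 0.03 (adjusted p = 0.00939). All 4 knockout-labelled values were the higher ones. Of the 20 genes linked to this disease that were tested, 4 were higher, 3 lower and 13 did not pass, with a median of -0.01. These shares were 20% higher and 15% lower, against 8.63% and 12.7% of all features.

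Rps15a, another small-subunit gene on that disease list, had 3 kept probes that all pointed up, at 0.23, 0.25 and 0.28. Its brightest probe read 14.73, 14.67, 14.82 and 14.87 in knockout-labelled samples and 14.54, 14.44, 14.62 and 14.59 in wild-type samples (0.23 ± 0.04; adjusted p = 0.0120). The groups were apart.

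**Figure D3:**
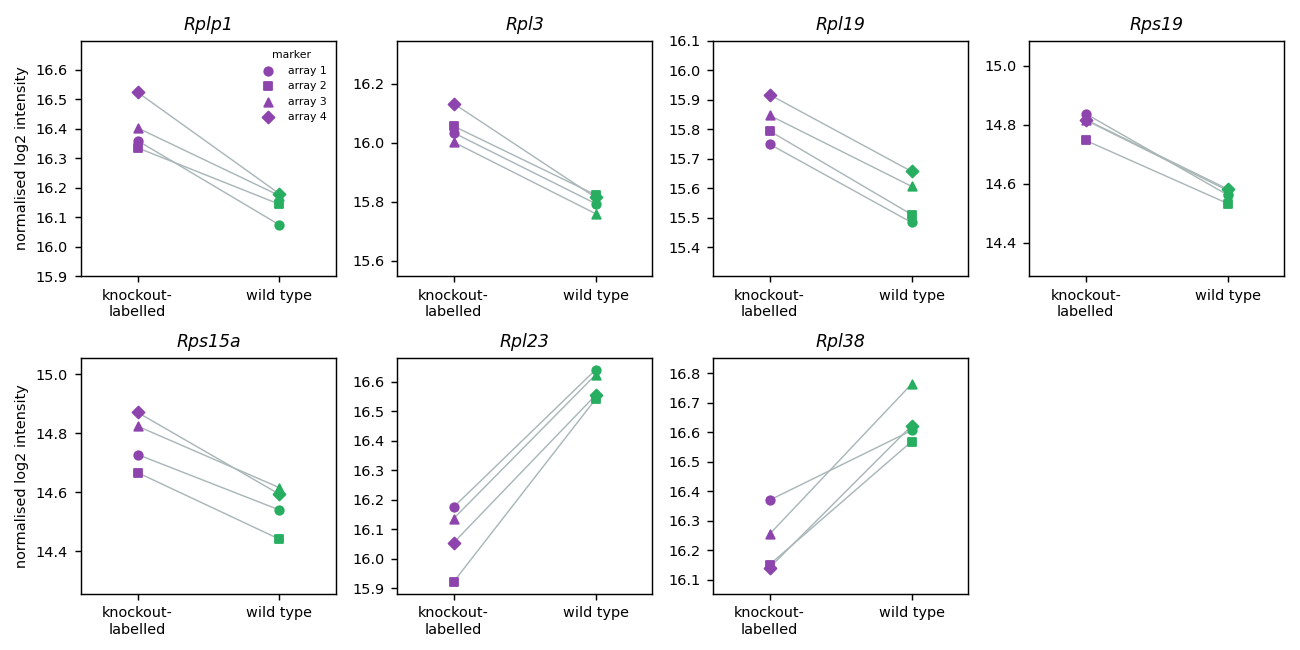
Normalised log2 intensity (vertical axis, each panel spanning the same height) in the knockout-labelled and wild-type sample of each array, joined by lines, for 5 genes called higher (Rplp1, Rpl3, Rpl19, Rps19, Rps15a) and 2 called lower (Rpl23, Rpl38). In each panel all 4 lines run the same way and the groups do not overlap; levels of different genes are not comparable.

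Rpl23 stood at 16.18, 15.92, 16.14 and 16.05 in knockout-labelled samples, against 16.64, 16.54, 16.62 and 16.55 in wild-type samples. The groups were far apart, and the ratio of -0.52 (adjusted p = 0.00171) was -0.36 ± 0.06 relative to like brightness (adjusted p = 0.00437). Its other probes, both dimmer, stood at -0.10 and 0.05.

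Rpl38, needed in mice for the translation of Hox RNAs and for patterning of the skeleton, was lower by both of its probes. The brightest read 16.37, 16.15, 16.25 and 16.14 in knockout-labelled samples and 16.61, 16.57, 16.76 and 16.62 in wild-type samples. Its log2 ratio was -0.41 ± 0.12 (adjusted p = 0.00538) and that of the second probe -0.42 ± 0.05. Relative to like brightness it was -0.22 ± 0.12 (adjusted p = 0.0307), with array 1 the least low.

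The promoters of 5 genes called in both the loess fit and the fit centred on like brightness are shown. Rpl19, Rps15a and Rps18 for higher and Rpl23 and Rpl38 for lower genes let the sequence be set beside the direction. Each line gives 75 bases before and 25 after the first RefSeq start in the table for the build GRCm38.p6, read along the gene. They lie at chr11:98026635-98026734 (plus strand) for Rpl19, chr7:118116123-118116222 (minus) for Rps15a, chr17:33955641-33955740 (minus) for Rps18, chr11:97782415-97782514 (minus) for Rpl23 and chr11:114668505-114668604 (plus) for Rpl38. Capitals mark, on either strand, the pyrimidine tract CTTTCC with its variants written CTTTTC or as CTCTTT, the ETS core CGGAAG, the YY1 motif AAGATGGC, the E-box CACGTG and the TATA box TATAAA.
Rpl19: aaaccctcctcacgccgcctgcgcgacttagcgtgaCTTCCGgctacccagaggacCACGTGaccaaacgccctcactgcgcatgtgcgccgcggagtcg
Rps15a: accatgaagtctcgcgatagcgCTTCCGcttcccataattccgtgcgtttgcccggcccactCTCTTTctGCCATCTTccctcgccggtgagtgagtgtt
Rps18: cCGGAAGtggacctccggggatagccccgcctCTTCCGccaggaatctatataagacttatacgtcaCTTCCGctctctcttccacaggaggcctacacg
Rpl23: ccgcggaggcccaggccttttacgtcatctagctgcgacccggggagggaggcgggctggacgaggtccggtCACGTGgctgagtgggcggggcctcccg
Rpl38: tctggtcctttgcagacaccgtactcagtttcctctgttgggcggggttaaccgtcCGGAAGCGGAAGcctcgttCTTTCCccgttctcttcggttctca

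Over the 300 bases that the table holds per promoter, 61 of the 82 genes had an entry. The ETS core was in 41 of these 61 (67.2%), against 17.2% of all 27025 promoters, and CTTTCC was in 47.5%, against 26.3%. CTCTTT was in 42.6%, against 22.9%, and CTTTTC in 26.2%, against 21.8%; these 3 tracts can overlap each other. The YY1 motif was in 6.56%, against 2.88%, the E-box in 8.20%, against 7.24%, and the TATA box in 9.84%, against 14.2%. The ETS core was in 3 of 5 promoters of genes that were higher in both the loess fit and the fit centred on like brightness, and in 4 of 6 of those that were lower in both. Windows of 100 bases were also drawn for other genes called in both fits and are not printed. Those of Rps19, which was higher, and of Rps24, Rps13 and Rpl32l, which were lower, held none of the motifs. Those of Rps4x, higher, and Rpl39l, lower, held CTTTCC. A match of letters is a description of the window and not evidence of binding.

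The second question was how well other probes of a gene bore out its brightest one. Of 51 genes with a second kept probe, 32 had the same sign in both (62.7%), against 57.8% of 4482 other genes. Where the second probe was within 1 log2 unit of the first in brightness the share was 24 of 35 (68.6%), against 71.8% of 255 other bright genes. Among the 17 called genes with a second probe, the median size of the log2 ratio was 0.23 for the first and 0.11 for the second. These 17 were picked because the first probe passed, which favours a larger size in the first. Over all 51 genes the median sizes were 0.0962 for the first and 0.105 for the second. Ribosomal protein genes have many processed pseudogenes and the probe sequences were not used here, so which copies a probe measured was not tested.

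Rpl10 was lower by all 3 of its probes, at -0.31, -0.32 and -0.28, and Rpl10a, a large-subunit protein, by both of its probes, at -0.21 and -0.19. Rpl6, also of the large subunit, was at -0.18 by its brightest probe and at -0.09, -0.05 and -0.11 by the others. None of these 3 genes passed relative to like brightness. Other called genes had probes of opposite sign. Rpl7 stood at -0.22, -0.13, 0.10 and 0.24 from the brightest probe to the dimmest. Rpsa, also known as the laminin receptor, stood at -0.27 by the brightest and at 0.02, 0.15 and 0.05 by the others. Rpl8, a protein near the peptidyl transferase centre, stood at -0.25 and 0.10.

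**Figure D4:**
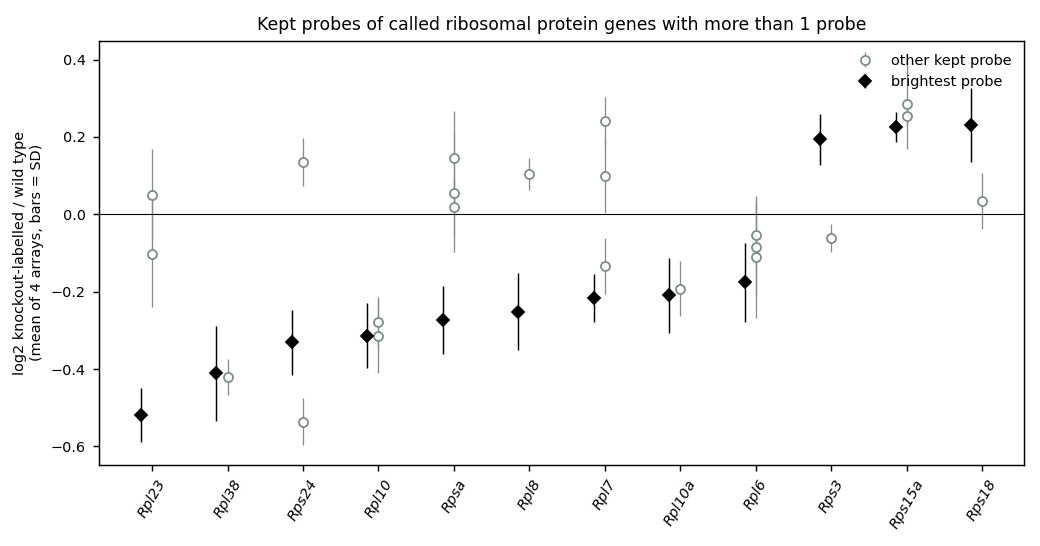
Log2 ratio, knockout-labelled to wild type (vertical axis, mean of 4 arrays, bars are SD) of every kept probe of called ribosomal protein genes that are named in the text and have more than 1 probe; diamonds are the brightest probe and open circles the others. The probes of Rpl38, Rpl10, Rpl10a, Rpl6 and Rps15a share a sign, whereas those of Rps24, Rpsa and Rpl7 fall on both sides of 0.

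Chromosome 14, which carries Ndrg2, carries 2 of the tested members. Rps24, a small-subunit gene on the Diamond-Blackfan list, read 15.99, 15.97, 16.27 and 16.21 in knockout-labelled samples, against 16.35, 16.40, 16.52 and 16.50 in wild-type samples. It was lower at -0.33 ± 0.08 (adjusted p = 0.00636), and at -0.18 ± 0.08 relative to like brightness (adjusted p = 0.0344). A second probe stood lower still, at -0.54 ± 0.06, and the third and dimmest at 0.14 ± 0.06. Rpl15, on the same chromosome, did not pass at 0.01 ± 0.08 (adjusted p = 0.865).

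Paralogs with restricted or inducible expression were also on the array. Rpl39l, a testis-enriched relative of Rpl39 of the peptide exit tunnel, read 6.70, 6.51, 6.73 and 7.07 in knockout-labelled samples, 3 of them well above background, against 7.04, 6.87, 7.14 and 7.67 in wild-type samples. Its ratio was -0.43 ± 0.12 (adjusted p = 0.00463) while the groups overlapped across arrays. For this dim probe the size depended on the processing: it was -1.27 with the scanning software's ratios, -0.68 with a normexp offset of 10 and -0.07 with median centring, and the call was lost with median centring and without the replicate block. Rps4l gave 0.69, 0.63, 0.08 and 0.42 on arrays 1 to 4, with array 3 the lowest (mean 0.46 ± 0.27; adjusted p = 0.0189). Without replicate 1 it was at 0.38 (adjusted p = 0.0695) and without replicate 2 at 0.40 (adjusted p = 0.0764), and neither passed. The call of Rps4l was also lost with the scanning software's ratios, the series matrix values, median centring and without the replicate block. Rpl3l, a relative of Rpl3 in heart and skeletal muscle, did not pass at 0.02 ± 0.09 (adjusted p = 0.808), nor did Rps27l, a p53-inducible relative of Rps27, at 0.14 ± 0.09 (adjusted p = 0.0788).

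Other genes among the 10 highest were Rps18 at 0.23 ± 0.10, the X-linked Rps4x at 0.22 ± 0.08, Rpl18 at 0.20 ± 0.11 and Rps3, a protein of the channel by which RNA enters the small subunit, at 0.19 ± 0.07. Rps18 and Rps4x also passed relative to like brightness, with adjusted p of 0.0341 and 0.0430, and Rpl18 and Rps3 did not. With the scanning software's ratios Rps18 and Rps4x lost their call. A second probe stood at 0.03 for Rps18 and at -0.06 for Rps3. Other genes among the 10 lowest were Rpl35, a protein at the rim of the exit tunnel, at -0.30 ± 0.11, Rps14 at -0.28 ± 0.18 and Rpl41, the smallest ribosomal protein, at -0.26 ± 0.05. None of these 3 passed relative to like brightness. Rpl5 and Rpl11, which bind Mdm2 when ribosome assembly fails, did not pass at 0.05 and -0.09.

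Centring on like brightness also brought in genes that had not passed before. Rps27 stood at 0.24 ± 0.13 (adjusted p = 0.0310) and Rps23, a protein of the decoding site, at 0.22 ± 0.03 (adjusted p = 0.0137). Rpl12, at the base of the stalk, stood at 0.18 ± 0.05 (adjusted p = 0.0297). Rps16 stood at 0.17 ± 0.06 (adjusted p = 0.0379) and Rpl29 at 0.14 ± 0.01 (adjusted p = 0.0464). Before the centring Rps27, Rps23 and Rpl12 were at 0.07, 0.13 and 0.06. Rps16 was then at -0.05 and Rpl29 at -0.01, so the centring reversed the sign of both.

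**Figure D5:**
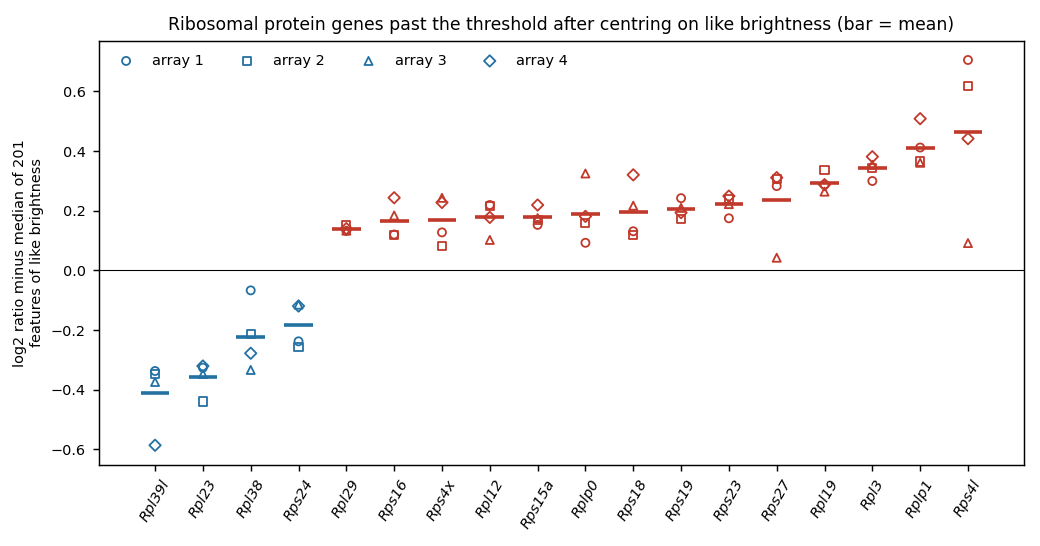
Log2 ratio, knockout-labelled to wild type, minus the median of the features of like brightness (vertical axis) for ribosomal protein genes named in the text that passed after this centring; symbols are arrays and bars are means. The genes run from -0.41 for Rpl39l to 0.46 for Rps4l, and array 3 is lowest for Rps27 and Rps4l.

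The pattern over genes recurred on every array. Over the 81 genes the log ratios of arrays 1 and 2 had a Pearson's r of 0.90, those of arrays 3 and 4 one of 0.93, and the remaining pairs ranged over 0.75 to 0.84. After subtraction of the like-brightness median the corresponding values were 0.85, 0.88 and 0.63 to 0.78. Over all features the log ratios had an r of 0.73 for arrays 1 and 2 and 0.628 for arrays 3 and 4. For the remaining pairs it was 0.408 to 0.475, so the same pairs of arrays were the closest over all features. All these values are descriptions over genes or features, which share probe and dye on all arrays.

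The third question was how the rest of the translation machinery stood. Genes encoding mitochondrial ribosomal proteins, which serve the separate ribosome of mitochondria, had 18 of 77 higher, 6 lower and 53 that did not pass, with a median of 0.04. These shares were 23.4% higher and 7.79% lower, against 8.63% and 12.7% of all features. Among them Mrpl12 was at 0.22 ± 0.04, Mrpl57 at 0.28 ± 0.13 and Mrpl27 at -0.25 ± 0.06, whose second probe stood at 0.19. Of 42 translation initiation factor genes, 8 were higher (19.0%) and 3 lower (7.14%), with a median of 0.04. Eif4g1, the scaffold of the cap-binding complex, rose by 0.35 ± 0.04 (adjusted p = 0.00324), the subunit gene Eif3i by 0.25 ± 0.05, and Eif4e, which binds the cap, fell by 0.31 ± 0.06 (adjusted p = 0.00629), though its other probe stood at 0.02.

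Of 15 elongation and release factor genes, 3 were higher and 3 lower (20% each, against 8.63% and 12.7% of all features). Eif5a rose by 0.31 ± 0.10, and Eef1a1, the factor that delivers transfer RNA, fell by 0.22 ± 0.06, with a second probe at -0.14. Gspt2, a release factor gene, rose by 0.20 ± 0.12. Of 7 tested ribosomal protein genes whose symbols lie outside the naming rule, 3 were lower (42.9%) and 1 higher (14.3%). Over all features 12.7% were lower and 8.63% higher. Among the lower ones were the scaffold gene Rack1 at -0.23 ± 0.06 and Fau, which encodes a ubiquitin-like fusion, at -0.23 ± 0.07. Rps3a1 was higher at 0.14 ± 0.04. Relative to like brightness Fau stood at 0.00.

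Ribosome biogenesis factor genes had 3 of 56 higher (5.36%) and 5 lower (8.93%), with a median of 0.02, both shares below those of all features. Ubtf, a transcription factor of RNA polymerase I, fell by 0.47 ± 0.08 (adjusted p = 0.00222) by its brightest probe, while a second stood at 0.16. Pes1, needed to process the large-subunit RNA, fell by 0.51 ± 0.24, with a second probe at 0.08, and Ltv1, which acts in small-subunit maturation, by 0.31 ± 0.09. Of 29 genes for mTOR signalling and the control of pyrimidine-tract RNAs, 4 were higher (13.8%) and 3 lower (10.3%). Over all features the shares were 8.63% and 12.7%. Cnbp, an RNA-binding protein of such RNAs, rose by 0.34 ± 0.06 (adjusted p = 0.00424), and Tial1 and Eif4ebp1, both translational repressors, fell by 0.27 ± 0.04 and 0.30 ± 0.09.

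The integrated stress response, which lowers translation through initiation factor 2, had 5 of 18 genes lower (27.8%) and 13 that did not pass, with a median of -0.07, beside the 12.7% of all features that were lower. Its transcription factor Atf4 fell by 0.34 ± 0.07 (adjusted p = 0.00484), with a second probe at 0.03. The serine synthesis gene Psat1 fell by 0.24 ± 0.02, with a second probe at -0.00, and Chac1, a glutathione-degrading enzyme gene, by 0.51 ± 0.26. The median of this list was -0.16, -0.05, -0.11 and -0.04 on arrays 1 to 4. Of 15 ribosome quality control genes, 2 were higher and 2 lower (13.3% each, against 8.63% and 12.7% of all features). The helicase gene Ascc3 fell by 0.20 ± 0.06, with a second probe at 0.00, and the rescue factor gene Pelo rose by 0.17 ± 0.06.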

How the data were processed

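Total RNA was measured on 4 2-colour Agilent arrays, all on 1 slide, with 200 ng of RNA labelled per sample, per the labels' protocols. Intensities of spots and background came from Agilent's Feature Extraction software, version 11.0.1.1, per the file headers; the submitters' processing notes name 10.7.3.1. The software's log10 ratios are Cy5 over Cy3, per the file headers. The deposited log2 values of the series matrix are wild type over knockout and were turned round. The deposited flags are other values of 0 or 1.

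Median signals were used, since the files used held no mean signals. They were corrected with normexp (offset 50) and normalized by loess (span 0.3) in limma 3.58.1 (R 4.3.3). Control spots had weight 0, and 139 to 186 outlier spots per array were left out. Probes well above background on at least 3 arrays in either channel were kept. Accessions were named through RefSeq genes of GRCm38.p6. Each feature's ratio was tested against 0 with lmFit and eBayes over all 24563 features, with Benjamini-Hochberg adjustment and a threshold of 0.05. Both genotypes of a replicate number share an array, so this paired fit has the replicate block built in. Levels per sample are log2 intensities after loess and Aquantile. The array design was annotated on mm9, so coordinates are those of the RefSeq promoter table. The steps were tested on simulated data.

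The members, lists and tests were chosen with earlier results of these data known. Named members are the 10 highest and 10 lowest that passed, stalk genes, paralogs, members on the chromosome of Ndrg2, called genes with the 6 largest probe disagreements, and genes with 1 array apart, and in other lists up to 3 genes with the smallest p; other names were chosen after their values were seen. A few genes that this rule names are not reported here.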

Additional observations from a re-analysis of the deposited data

Results flagged for a closer look

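In 4 of 81 genes 1 array stood apart from the other 3, by the gap to its nearest neighbour as a share of the range of the 4 log2 ratios; at 1 in 20, chance gives 4.05. For Rpl3 array 4 was the highest, with a gap share of 0.888 (0.24, 0.23, 0.24 and 0.32 on arrays 1 to 4). For Rpl35a, a large-subunit gene, array 1 was the lowest, with a gap share of 0.844 (0.01, 0.06, 0.06 and 0.07). For Rps23 array 4 was the highest, with a gap share of 0.856 (0.11, 0.11, 0.10 and 0.18). For Rps27 array 3 was the lowest, with a gap share of 0.910 (0.14, 0.12, -0.10 and 0.12).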

How the results depend on the processing

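Of 17 alternatives, the correction for brightness moved the counts most; the cause was not tested. Lower genes numbered 25 with loess, 4 with the scanner software's log ratios or the series matrix (median 0.0188 with each), 6 with a loess span of 0.1 (median 0.0235), 8 after centring on like brightness (median 0.0204) and 6 with windows of 51 features (median 0.0186). The mean of all kept probes gave a median of 0.00767. Median centring gave 1 higher and 78 lower genes and a median of -0.674. It reversed Rplp1 to -0.434, Rpl19 to -0.373, Rpl3 to -0.401, Rps19 to -0.290, Rps18 to -0.305, Rps15a to -0.304, Rps4x to -0.293, Rpl18 to -0.331, Rps3 to -0.310, Rplp0 to -0.656, Rps27l to -0.242, Rpl15 to -0.600, Rpl35a to -0.598, Rps23 to -0.535 and Rps27 to -0.632. Centring on like brightness reversed Rplp2 to 0.00255, and windows of 51 features reversed Rps14 to 0.117 and Rpl41 to 0.0918. Leaving out 1 replicate, which also leaves fewer samples, gave 6 to 7 higher and 12 to 16 lower genes. Those fits called 3.29 to 5.14% of all features higher and 4.97 to 7.80% lower. With 1 replicate left out Rplp0 ranged over -0.0101 to 0.0657, Rpl3l over -0.0207 to 0.0486 and Rpl15 over -0.0193 to 0.0441, all without a call. The fit with no replicate block, on separate channels, gave 8 higher and 17 lower genes, against 5.13% and 6.37% of all features. Rpl23 and Rpl38 kept their call under all 17 alternatives, and Rplp1, Rpl19, Rpl3, Rps19 and Rps15a under 16, all but median centring. Rplp1, Rpl19, Rpl3 and Rps19 had 1 probe each, so no other probe could check them. Averaging the probes of a gene could not change their ratios. The scanner software's ratios and the series matrix gave the same counts and are not separate checks. The 4 pairs, the single dye orientation and the small size of the differences limit what can be resolved.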
